A study of Mus musculus with 34 samples.

Results

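Dbp, Hlf, Tef, Nfil3, Bhlhe40 and Bhlhe41 are the transcription factors through which the circadian clock passes its rhythm on to other genes. These 6 genes were followed in mouse lung, out of 29316 probe units tested (a unit is a named gene, or an accession without a gene name). Each gene was taken from the probe whose RefSeq accession names it, and where a gene had several probes the one with the highest mean Cy5 signal was used. All 6 probes were well above background on 34 of 34 arrays. The Bhlhe41 probe was the dimmest, with a median Cy5 intensity of 157, and the next was Nfil3 with 893.5. Its ratios are therefore less sure than those of the others.

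The lungs came from female C57BL/6 mice aged 5 to 7 weeks, which received 1 intratracheal instillation of a carbon nanotube material in 40 µl. The 3 materials carry only code names (NRCWE-043 to NRCWE-045), each was given at 18 or 54 µg, and tissue was collected on day 28. There were 5 control arrays. NRCWE-043 had 5 arrays at the lower and 5 at the higher dose, NRCWE-044 had 6 and 5, and NRCWE-045 had 3 and 5. Lung RNA carried Cy5 and a reference RNA pooled from 11 mouse cell lines carried Cy3, so every level given here is a log2 ratio of lung over reference RNA for 1 probe. The RNA came from random sections of whole frozen lung, in which fewer cells of a type and less RNA per cell cannot be told apart. What the controls received is not given in the labels, and the title of 1 control (replicate 3) carries the code NRCWE-043 with a dose of 0 µg. All mice lived under a cycle of 12 h of light and dark. The sources used here do not give the hour at which each mouse was killed.

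In each cell the clock is a loop of transcription. CLOCK and BMAL1 (gene Arntl) bind E-box elements and switch on the Per, Cry and Nr1d genes, whose proteins then shut the loop down. Dbp, Hlf and Tef are the related PAR bZIP activators of D-box elements, and Nfil3 is the bZIP repressor of the same elements. Nfil3 is itself repressed by the nuclear receptors made from Nr1d1 and Nr1d2 (REV-ERBα and REV-ERBβ), and therefore peaks at another time of day than Dbp. Bhlhe40 and Bhlhe41 (DEC1 and DEC2) are bHLH repressors that bind E-boxes. The messages of these genes rise and fall daily in many tissues, lung included.

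The promoters are shown because 4 of the 6 genes moved together across the arrays. The promoters were searched for elements through which the loop acts, and for the cAMP element. On GRCm38.p6 Dbp lies at chr7:45705100-45710203, Hlf at chr11:90336535-90390917, Tef at chr15:81802673-81826863 and Nfil3 at chr13:52967209-52982878. Bhlhe40 lies at chr6:108660629-108666925 and Bhlhe41 at chr6:145858243-145865420. RefSeq promoters on this build were at hand for 5 of the 6 genes, 6 promoters in all, since Tef has 2. Each was searched over the 250 bases before the transcription start, on both strands. The E-box (CACGTG) stood in both Tef promoters and in that of Bhlhe41, and in 6.02% of 32851 mouse promoters. The cAMP element (TGACGTCA) stood in the Hlf promoter and in 1.55% of all promoters. The half-site of the REV-ERB and ROR receptors (AGGTCA, or TGACCT on the other strand) stood in the Nfil3 promoter and in 14% of all promoters. Neither the E'-box (CACGTT, 3.85% of all promoters) nor the D-box (TTATGTAA or TTACGTAA, 0.931%) matched in any of the 6. Dbp had no match to any of these motifs in this window. A match is only a run of letters and shows no binding. In the lines that follow stand 100 bases of each promoter, 5′ to 3′ on the strand of the gene, with the matched motif in capitals.
Dbp, chr7:45705147-45705246, plus strand: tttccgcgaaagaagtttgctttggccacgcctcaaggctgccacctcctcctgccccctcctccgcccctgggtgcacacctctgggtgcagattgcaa
Hlf, chr11:90390918-90391017, minus strand: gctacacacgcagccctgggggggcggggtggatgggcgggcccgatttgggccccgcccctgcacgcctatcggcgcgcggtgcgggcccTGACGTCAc
Tef, first promoter, chr15:81802499-81802598, plus strand: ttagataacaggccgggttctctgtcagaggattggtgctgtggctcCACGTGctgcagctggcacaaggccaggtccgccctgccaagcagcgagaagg
Tef, second promoter, chr15:81811229-81811328, plus strand: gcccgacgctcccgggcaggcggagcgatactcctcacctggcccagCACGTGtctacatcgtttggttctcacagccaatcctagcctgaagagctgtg
Nfil3, chr13:52981040-52981139, minus strand: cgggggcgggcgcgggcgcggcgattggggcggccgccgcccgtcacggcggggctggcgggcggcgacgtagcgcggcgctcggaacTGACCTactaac
Bhlhe41, chr6:145865521-145865620, minus strand: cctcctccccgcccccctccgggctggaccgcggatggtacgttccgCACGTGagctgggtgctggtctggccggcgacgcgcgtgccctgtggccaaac

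The share of probes that stood above background in the lung channel ran from 52.2 to 69.4% per array, and 0 spots were saturated. Correlations across probes within a group were 0.908 to 0.970, and no pair of arrays held the same values. Markers of liver and fat, tissues that lie beside the lung at dissection, were high on a few arrays. The heart muscle markers varied more widely, with group means from 0.44 (NRCWE-044 18 µg) to 2.65 (controls). The mean log2 ratio of the 5 liver markers was 4.97 on NRCWE-045 18 µg replicate 2 and 2.00 on NRCWE-045 54 µg replicate 1, and lay between -0.01 and 0.22 on the 10 NRCWE-043 arrays. The fat score exceeded 5 on 3 arrays, NRCWE-044 54 µg replicate 1 (6.25), NRCWE-045 54 µg replicate 4 (5.67) and NRCWE-045 18 µg replicate 1 (5.54). On the NRCWE-043 arrays the fat score ran from 0.57 to 3.50. The alveolar type 2, type 1, club and endothelial scores, which mark the lung itself, all exceeded 3.9 on every array.

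In the lungs that had received NRCWE-043, Hlf and Tef were lower and Nfil3 was higher than in the arrays of all other groups. Hlf fell by 0.82 ± 0.11 (SE) on the log2 scale, a 1.77-fold lower ratio, and Tef fell by 0.98 ± 0.17, a 1.98-fold lower ratio. Nfil3, their repressing counterpart, rose by 0.70 ± 0.16, 1.63-fold. Dbp had the widest gap, -1.84 ± 0.51, but did not pass the test, since it varied as widely inside the groups. Bhlhe40 (-0.02 ± 0.10) and Bhlhe41 (0.07 ± 0.08) did not pass either.

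With limma, the adjusted p in this comparison of 10 NRCWE-043 arrays with the other 24 was 3e-04 for Hlf, 0.00409 for Tef, 0.0290 for Nfil3, 0.0783 for Dbp, 0.980 for Bhlhe40 and 0.843 for Bhlhe41. Thus 3 of the 6 members passed, while 0.832% of all units passed, 0.679% being lower (199 units) and 0.153% higher (45). With median centring that split was 15 lower and 11 higher, and with quantile normalization 91 and 63. At an unadjusted p under 0.05 the members counted 4 of 6, and 10.4% of units. The 5 other groups entered with equal weight. The 95% interval was -1.05 to -0.59 for Hlf, -1.32 to -0.64 for Tef, 0.38 to 1.03 for Nfil3 and -2.89 to -0.80 for Dbp. For Bhlhe40 the interval was -0.23 to 0.20 and for Bhlhe41 -0.09 to 0.23.

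**Figure D1:**
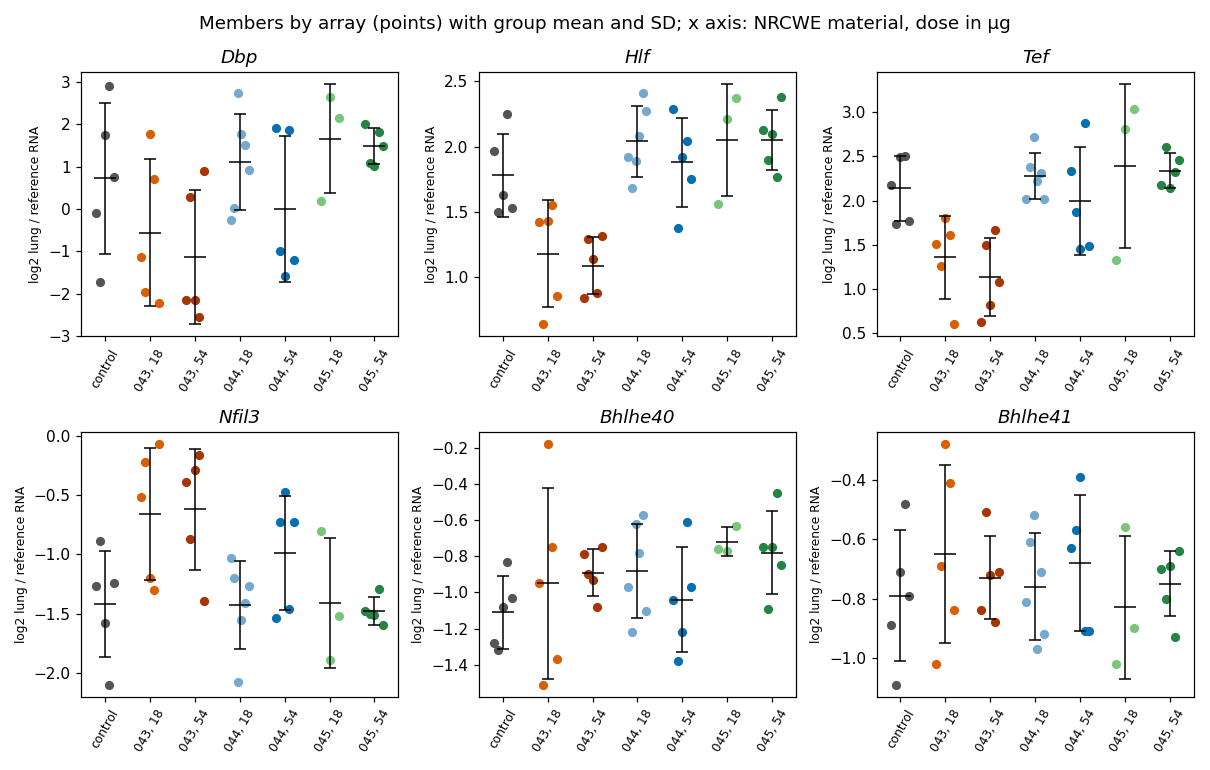
Each panel plots 1 gene, with the log2 ratio of lung over reference RNA on the y axis and the 7 groups (material code and dose in µg) on the x axis. Points are arrays, horizontal marks are group means and bars are SD. The NRCWE-043 groups have the lowest Hlf and Tef means and the highest Nfil3 means, and Dbp spans at least 3.43 units inside 4 of the 7 groups.

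Hlf, a PAR bZIP activator, ranked 3 among all units by p in this comparison. The control values were 1.97, 1.5, 1.63, 2.25 and 1.53. With NRCWE-043 they were 1.42, 0.64, 1.43, 1.55 and 0.86 at 18 µg. At 54 µg of NRCWE-043 they were 0.84, 1.29, 1.14, 0.88 and 1.32. At 54 µg every NRCWE-043 value was thus below every control, and at 18 µg 4 of 5 were. Among all units, 0.836% and 0.486% had no overlap in those 2 comparisons. With NRCWE-044 the values ran from 1.68 over a median of 2.00 to 2.41 at 18 µg and were 2.29, 1.38, 1.92, 2.04 and 1.75 at 54 µg. With NRCWE-045 they were 1.56, 2.21 and 2.37 at 18 µg and 2.13, 1.90, 2.10, 1.77 and 2.38 at 54 µg. Of the 10 NRCWE-043 arrays, 7 lay below all 24 others, and 9 of the 10 lowest Hlf values in the series came from them. No unit separated the 10 arrays fully from the 24 (0% of 29196 units with a value on every array). The share of all units with such partial counts was not worked out, for Hlf or for the members that follow. Ordered by group mean, Hlf ran from 1.09 ± 0.22 (SD, n = 5) at 54 µg and 1.18 ± 0.41 (n = 5) at 18 µg of NRCWE-043 to 1.78 ± 0.32 (n = 5) in the controls. The remaining means were 1.88 ± 0.34 (NRCWE-044, 54 µg, n = 5), 2.04 ± 0.27 (NRCWE-044, 18 µg, n = 6), 2.05 ± 0.23 (NRCWE-045, 54 µg, n = 5) and 2.05 ± 0.43 (NRCWE-045, 18 µg, n = 3). Neighbours in this order differed by less than 1 SD, except at the step from NRCWE-043 to the controls.

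Tef, the PAR bZIP factor with 2 E-box promoters above, followed Hlf. The controls stood at 2.18, 1.74, 2.49, 2.51 and 1.77. NRCWE-043 gave 1.51, 1.26, 1.80, 1.61 and 0.60 at 18 µg. At 54 µg it gave 0.63, 1.5, 0.82, 1.67 and 1.08. The 5 arrays at 54 µg again lay below every control, and 4 of the 5 at 18 µg did. NRCWE-044 gave 2.02 to 2.72 with a median of 2.27 at 18 µg, and 2.33, 1.87, 1.45, 2.88 and 1.49 at 54 µg. NRCWE-045 gave 1.33, 2.81 and 3.04 at 18 µg, and 2.18, 2.61, 2.14, 2.32 and 2.46 at 54 µg. Low Tef was therefore also seen on single arrays outside NRCWE-043, the lowest being NRCWE-045 18 µg replicate 1, which carried a fat score of 5.54. The next lowest, NRCWE-044 54 µg replicates 3 and 5 (1.45 and 1.49), had fat scores of 0.90 and 1.24. NRCWE-044 54 µg replicate 1 and NRCWE-045 54 µg replicate 4, with fat scores of 6.25 and 5.67, had Tef at 2.33 and 2.32. Of the 10 NRCWE-043 arrays, 5 lay below all others and all 10 lay below the median of the others, counts for which no share over all units was worked out. The group means rose from 1.14 ± 0.44 (54 µg) and 1.36 ± 0.47 (18 µg) with NRCWE-043 through 2.00 ± 0.61 (NRCWE-044, 54 µg), 2.14 ± 0.37 (controls) and 2.28 ± 0.26 (NRCWE-044, 18 µg) to 2.34 ± 0.20 (NRCWE-045, 54 µg) and 2.39 ± 0.93 (NRCWE-045, 18 µg).

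Dbp, the PAR bZIP factor known for its strong daily swing, ranged from -2.54 to 2.91 over the series, and its SD of 1.64 was above that of 99.94% of all units. The controls alone covered most of that range, with -0.09, -1.73, 1.74, 2.91 and 0.76. NRCWE-043 gave -1.12, -1.95, 1.77, 0.70 and -2.21 at 18 µg. At 54 µg it gave -2.15, 0.28, -2.15, -2.54 and 0.89. The 5 lowest Dbp values of the series were all from NRCWE-043 arrays, yet 4 other arrays of that material were above 0. NRCWE-044 ran from -0.27 over a median of 1.22 to 2.73 at 18 µg, and gave 1.90, -1.0, -1.57, 1.87 and -1.21 at 54 µg. NRCWE-045 gave 0.20, 2.64 and 2.15 at 18 µg, and 2.01, 1.08, 1.02, 1.81 and 1.48 at 54 µg. The NRCWE-044 arrays at 54 µg thus fell into high and low values, while the 5 NRCWE-045 arrays at that dose stayed within 0.99 of each other. Group means ran from -1.13 ± 1.59 and -0.56 ± 1.73 (54 and 18 µg of NRCWE-043) through 0.00 ± 1.73, 0.72 ± 1.77 and 1.11 ± 1.13 (NRCWE-044 at 54 µg, controls, NRCWE-044 at 18 µg) to 1.48 ± 0.43 and 1.66 ± 1.29 (NRCWE-045 at 54 and 18 µg). A second Dbp probe followed the first at r = 0.995 over the 34 arrays. With it the gap between NRCWE-043 and all others was -2.03 and passed the test (adjusted p = 0.0408, limma). With the probe used here Dbp passed when NRCWE-045 18 µg replicate 1 was left out (-1.99, adjusted p = 0.0467) or slide was a random block (-1.89, adjusted p = 0.0392).

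Nfil3 moved opposite to the activators. The control values were -1.27, -0.89, -1.58, -2.10 and -1.24. NRCWE-043 gave -0.52, -0.22, -1.20, -1.30 and -0.07 at 18 µg. At 54 µg it gave -0.39, -0.87, -0.29, -0.16 and -1.39. The groups overlapped, with 4 of 5 arrays above every control at 54 µg and 3 of 5 at 18 µg. NRCWE-044 gave -2.08 to -1.03 with a median of -1.34 at 18 µg, and -1.54, -0.73, -0.47, -1.46 and -0.73 at 54 µg. NRCWE-045 gave -0.80, -1.89 and -1.52 at 18 µg, and -1.48, -1.5, -1.51, -1.29 and -1.60 at 54 µg. High Nfil3 outside NRCWE-043 was seen mainly on the 3 NRCWE-044 arrays at 54 µg that also had low Dbp. The order of the means was -0.62 ± 0.51 and -0.66 ± 0.56 (NRCWE-043 at 54 and 18 µg), -0.99 ± 0.48 (NRCWE-044, 54 µg), then -1.41 ± 0.55 (NRCWE-045, 18 µg), -1.42 ± 0.45 (controls), -1.43 ± 0.37 (NRCWE-044, 18 µg) and -1.48 ± 0.12 (NRCWE-045, 54 µg). The last 4 means differed by less than their spread. The call on Nfil3 was lost when any 1 of 6 arrays was left out, with an adjusted p of 0.0531 to 0.0867 (limma). These were NRCWE-043 18 µg replicates 2 and 5, NRCWE-043 54 µg replicates 1 and 3, and NRCWE-045 18 µg replicates 2 and 3, and the change without them was 0.63 to 0.69.

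Neither E-box repressor passed between NRCWE-043 and the other groups. Bhlhe40 ran from -1.51 to -0.18 over a median of -0.92 on the NRCWE-043 arrays, and from -1.38 to -0.45 over a median of -0.91 on the others. Both extremes of the NRCWE-043 range were at 18 µg, and that range enclosed all 24 other arrays. Its group means lay between -1.11 ± 0.20 (controls, n = 5) and -0.72 ± 0.08 (NRCWE-045 18 µg, n = 3). These 2 groups did not overlap (-1.32 to -0.83 and -0.77 to -0.63), as was so for 5.24% of units, and Bhlhe40 did not pass between them (adjusted p = 0.669, limma). Bhlhe41 ran from -1.02 to -0.28 over a median of -0.72 with NRCWE-043, and from -1.09 to -0.39 over a median of -0.75 without it. Its group means spanned -0.83 ± 0.24 (NRCWE-045 18 µg, n = 3) to -0.65 ± 0.30 (NRCWE-043 18 µg, n = 5). The share of variance that lay between slides was 0.472 for Bhlhe41, against 0.078 between the groups. A second, dimmer Bhlhe41 probe was above background on 18 of 34 arrays, had r = -0.245 with the first and a change of -0.17, of opposite sign. The sign of the Bhlhe40 value turned with slide as a block, with median centring and without some single arrays, where it stayed between 0.004 and 0.05.

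The comparison with the 5 controls sets each material against the control group. Among the controls alone Dbp ran from -1.73 to 2.91. The hour of killing is not given, so its share in these differences was not tested. Against them NRCWE-043, both doses averaged, gave -1.57 ± 0.74 for Dbp, -0.64 ± 0.16 for Hlf, -0.89 ± 0.24 for Tef and 0.78 ± 0.23 for Nfil3. The values had the direction of the wider comparison, but none of the 6 members passed in limma (0 of 6, adjusted p 0.485 to 0.990). No unit on the array did (0%), while 5.5% of units and 4 of the 6 members had an unadjusted p under 0.05. The interval for Hlf was -0.97 to -0.30 and that for Tef -1.38 to -0.40. Bhlhe40 gave 0.18 ± 0.15 and Bhlhe41 0.10 ± 0.11.

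By dose, Hlf stood at -0.60 ± 0.19 at 18 µg and -0.68 ± 0.19 at 54 µg of NRCWE-043 against the controls. Tef stood at -0.78 ± 0.28 and -1.0 ± 0.28, Nfil3 at 0.75 ± 0.27 and 0.80 ± 0.27, and Dbp at -1.28 ± 0.86 and -1.85 ± 0.86. No member passed at either dose (0 of 6 each, 0% of units each in limma), and 3 and 4 of the 6 had an unadjusted p under 0.05, against 4.35% and 5.63% of units. The step from 18 to 54 µg of NRCWE-043 was -0.09 (95% interval -0.47 to 0.30) for Hlf and -0.22 (-0.78 to 0.35) for Tef. It was 0.04 (-0.50 to 0.58) for Nfil3 and -0.57 (-2.32 to 1.17) for Dbp. No member passed there (0 of 6, limma), none had an unadjusted p under 0.05 (0 of 6, 3.13% of units) and 0% of units were called.

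**Figure D2:**
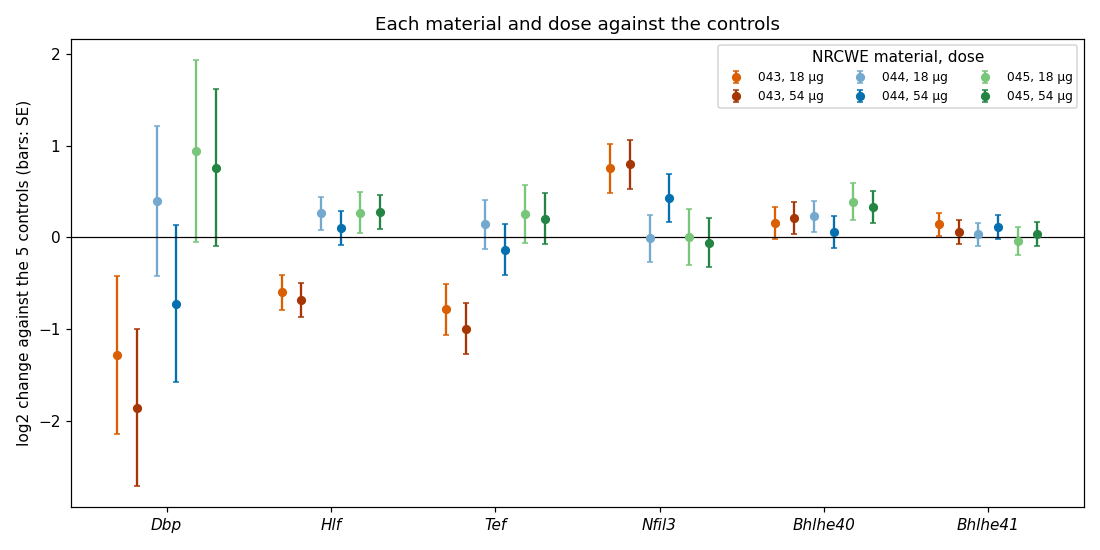
The y axis is the log2 change of each material and dose against the 5 controls and bars are the SE of the limma fit, with genes on the x axis and colours for material and dose. Both NRCWE-043 doses lie below 0 for Dbp, Hlf and Tef and above 0 for Nfil3. All 6 comparisons share the same controls.

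For NRCWE-044 and NRCWE-045 no change in the 6 genes was detectable with these arrays. In the 8 comparisons without NRCWE-043 (each dose against controls, dose against dose, material against material), no member passed in limma and none had an unadjusted p under 0.05 (0 and 0), with 0% of units called in each. The share of units at an unadjusted p under 0.05 was 3.13% and 5.84% for NRCWE-044 at 18 and 54 µg against the controls, and 7.92% and 3.92% for NRCWE-045. It was 5.24% and 2.36% between the doses of NRCWE-044 and of NRCWE-045, and 6.16% and 3.6% between these materials at 18 and 54 µg. Hlf lay between -0.17 and 0.28 in these comparisons, Tef between -0.34 and 0.26 and Nfil3 between -0.07 and 0.49. Dbp lay between -1.48 and 0.94. The controls are shared by 4 of them. A p that misses the threshold does not show that NRCWE-044 and NRCWE-045 act alike, and the interval for Dbp between them at 54 µg was -3.23 to 0.26.

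Set against the other materials, whose 4 groups were averaged, NRCWE-043 gave -0.87 ± 0.12 for Hlf (adjusted p = 0.000271, limma), -1.01 ± 0.17 for Tef (0.00439) and 0.68 ± 0.17 for Nfil3 (0.0349). Dbp gave -1.91 ± 0.53 (adjusted p = 0.0693). Thus 3 of 6 members passed, and 1.29% of all units did. Since the fit subtracts the same controls from both sides, this is also the test that the change with NRCWE-043 differs from that with the other materials. At an unadjusted p under 0.05 there were 4 of 6, and 11.1% of units. The Nfil3 call here was lost without any 1 of 11 arrays (adjusted p up to 0.0976, change 0.61 to 0.67). These were NRCWE-043 18 µg replicates 1, 2 and 5, NRCWE-043 54 µg replicates 1, 3 and 4, NRCWE-044 54 µg replicates 1 and 4, NRCWE-045 18 µg replicates 2 and 3, and NRCWE-045 54 µg replicate 5. Dbp passed without NRCWE-045 18 µg replicate 1 (-2.09, adjusted p = 0.0409), NRCWE-044 54 µg replicate 3 (-2.01, 0.0495), NRCWE-043 18 µg replicate 4 (-2.07, 0.0469) or NRCWE-043 54 µg replicate 5 (-2.16, 0.0475). It also passed with slide as a random block (-1.92, adjusted p = 0.0408) and with its other probe (-2.12, 0.0346). The Nfil3 call was further lost with quantile normalization (adjusted p = 0.0556), median centring (0.0998), the liver, fat and heart muscle scores as covariates (0.206) and the 4 arrays of highest fat or liver score left out (0.0617).

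At matched dose 4 pairs with NRCWE-043 were compared, with the adjustment made over all units within each. Against NRCWE-044, Hlf was at -0.86 ± 0.18 at 18 µg (adjusted p = 0.135, limma) and -0.79 ± 0.19 at 54 µg (0.260). Against NRCWE-045 it was at -0.87 ± 0.22 at 18 µg (0.0572) and -0.96 ± 0.19 at 54 µg (0.137). No member passed in these 4 comparisons (0 of 6 each), where 0.0102% (0.00682% lower), 0%, 0.43% and 0.00341% of units passed, in the same order of pairs. The counts of members with an unadjusted p under 0.05 were 4, 2, 4 and 4, against 5.56%, 4.79%, 10.7% and 5.1% of units. Tef ran from -1.20 ± 0.28 (NRCWE-045, 54 µg) to -0.86 ± 0.28 (NRCWE-044, 54 µg), and Dbp from -2.61 ± 0.86 to -1.13 ± 0.86 in the same pairs. Nfil3 lay between 0.36 ± 0.27 (NRCWE-044, 54 µg) and 0.85 ± 0.27 (NRCWE-045, 54 µg). Without NRCWE-045 18 µg replicate 1, both Hlf (-1.11) and Tef (-1.57) passed against NRCWE-045 at 18 µg, each with an adjusted p of 0.0210. Without NRCWE-043 18 µg replicate 4, Hlf (-0.96) passed there too, at 0.0234. With slide as a random block Hlf passed against NRCWE-045 at both doses, at -0.92 (adjusted p = 0.0250) for 18 µg and -0.98 (0.0397) for 54 µg. At 54 µg it also passed with array weights (-0.98, 0.0477) and without the 4 arrays of highest fat or liver score (-1.03, 0.0319).

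Arrays were hybridised on 6 slides, and 5 of these held NRCWE-043 beside other groups. Within all 5, Hlf (-1.25 to -0.64), Tef (-1.33 to -0.81) and Dbp (-4.68 to -0.86) were lower with NRCWE-043 and Nfil3 was higher (0.56 to 1.43). Bhlhe40 (-0.51 to 0.24) and Bhlhe41 (-0.07 to 0.16) went both ways. The outer Dbp and Nfil3 values came from slide 4, which held 1 NRCWE-043 array. In a two-sided permutation test of 100000 resamples over the 34 arrays, p was 1e-05 for Hlf and for Tef, the smallest that number can give, 0.00024 for Nfil3 and 0.0027 for Dbp. For Bhlhe40 and Bhlhe41 it was 0.98 and 0.39. With labels permuted only within slides (30 arrays), p was 2e-05 for Hlf, 3e-05 for Tef, 0.00062 for Nfil3 and 0.0033 for Dbp. The members were chosen with earlier results of these data known, and neither permutation allows for that choice.

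**Figure D3:**
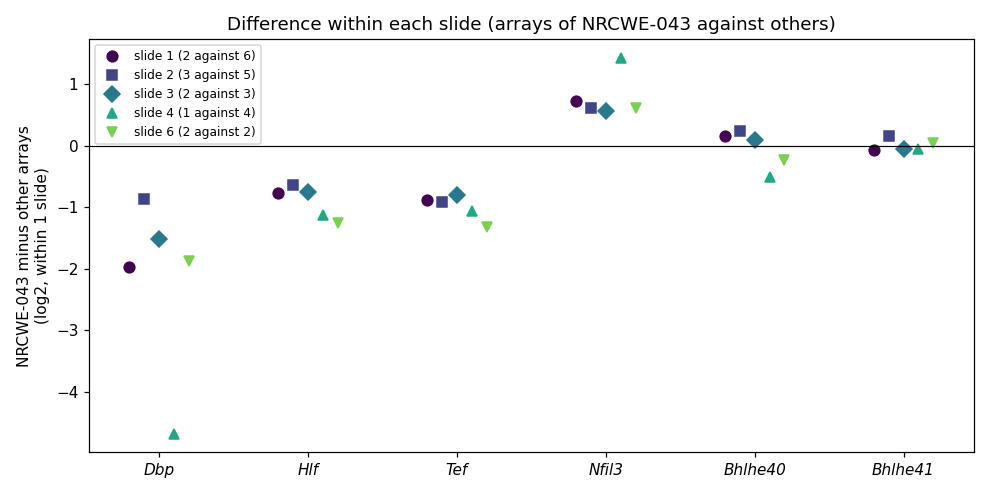
The y axis is the mean of the NRCWE-043 arrays minus the mean of the other arrays on the same slide (log2), for each gene on the x axis, and symbols mark the 5 slides that held both. Hlf, Tef and Dbp are below 0 and Nfil3 is above 0 on every one, with the outermost Dbp value (-4.68) on slide 4.

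The fat and liver scores were lower on average with NRCWE-043 than in the other arrays. All 5 markers of each list were below 0 in the comparison with all others (median -0.74 for fat and -0.47 for liver, 0 of 5 passing in each). Among all units 15763 of 29316 were below 0. The fat score spanned 0.57 to 3.50 with NRCWE-043 and 0.87 to 6.25 in the others, and the liver score -0.01 to 0.22 and -0.05 to 4.97. The heart muscle score spanned 0.30 to 3.78 and 0.27 to 5.28. With the 3 scores as covariates, Hlf stood at -0.79 (adjusted p = 0.00697, limma), Tef at -1.04 (0.0110), Dbp at -1.73 (0.243) and Nfil3 at 0.63 (0.143), so that the call on Nfil3 was lost. Without the 3 arrays of highest fat score and the array of highest liver score, Hlf stood at -0.88 (5.34e-05), Tef at -1.10 (0.000275), Dbp at -1.83 (0.131) and Nfil3 at 0.71 (0.0363). Both settings were chosen after seeing the data.

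Across single arrays 4 of the members varied together. Over the 34 arrays Nfil3 and Dbp had r = -0.95 and rho = -0.90 (permutation p = 1e-05 for each, the smallest possible, and 3e-05 after Benjamini-Hochberg adjustment over 15 pairs). Without the 2 arrays of most extreme Dbp r was -0.93, and it was -0.95 within the 10 NRCWE-043 arrays and -0.92 within the other 24. Dbp and Tef had r = 0.78 and rho = 0.81 (permutation p = 1e-05 for each, adjusted 3e-05). Dbp and Hlf had r = 0.75 and rho = 0.71 (permutation p = 2e-05 for each, adjusted 5e-05), with 0.80 within NRCWE-043 and 0.59 within the others. Hlf and Tef had r = 0.79 and rho = 0.74 (permutation p = 1e-05 for each, adjusted 3e-05), with 0.52 within either set. After each slide's mean was taken off, that r was 0.95, and after each group's mean was taken off it was 0.49. Without the 2 outermost arrays r stayed at 0.78 for Dbp with Tef, 0.69 for Dbp with Hlf and 0.75 for Hlf with Tef. The permutations for all pairs ran over the 34 arrays without regard to group or slide. Their p therefore also reflects gaps between groups. With each group's mean taken off, r was -0.94 for Nfil3 with Dbp, 0.67 for Dbp with Tef and 0.65 for Dbp with Hlf.

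Bhlhe40 joined this pattern in part, with r = 0.62 and rho = 0.62 to Dbp (permutation p = 1e-04 and 0.00015, adjusted 0.00021 and 0.00032) and r = 0.59 without the 2 outermost arrays. Within NRCWE-043 this r was 0.75, and within the others 0.70. To Nfil3 the r of Bhlhe40 was -0.48 (rho = -0.46, permutation p = 0.0037 and 0.0058, adjusted 0.0070 and 0.011), and -0.42 without the 2 outermost arrays of Nfil3. It was -0.73 within NRCWE-043 and -0.51 within the others. Bhlhe41 had r = 0.27 to Dbp (rho = 0.24, permutation p = 0.13 and 0.17, adjusted 0.17 and 0.23), and 0.77 within NRCWE-043 but 0.20 within the others. The arrays share a reference RNA, and those of 1 slide were hybridised together.

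**Figure D4:**
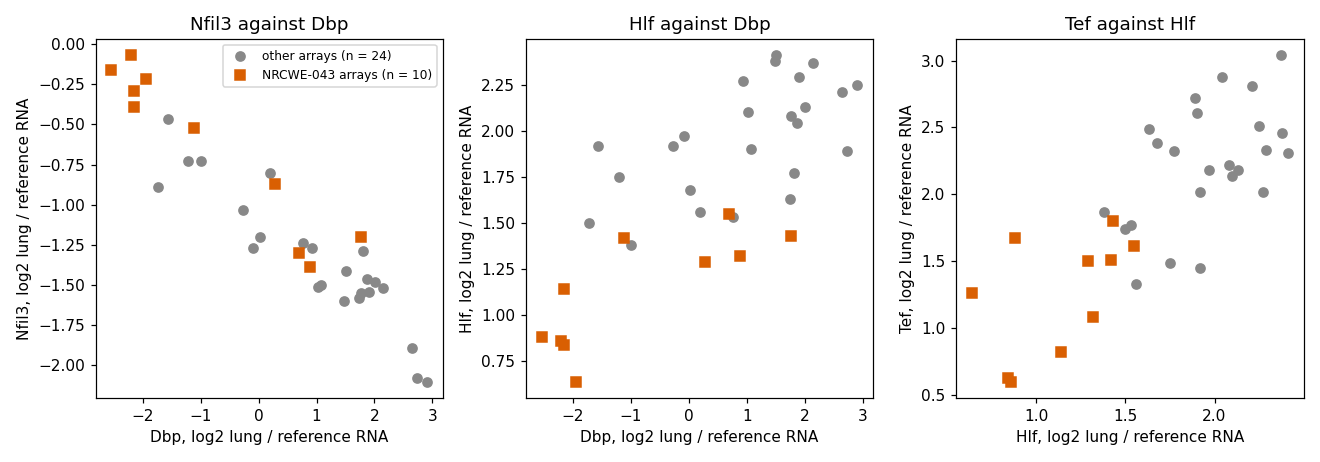
Each point is an array, with log2 ratios of lung over reference RNA on both axes of the 3 panels, squares for the 10 NRCWE-043 arrays and circles for the other 24. Nfil3 falls as Dbp rises along 1 line for both sets (r = -0.95), in the first panel. In the panel of Hlf against Dbp the NRCWE-043 arrays lie lower in Hlf than most others, with an overlap between 1.38 and 1.55. In that panel 5 of the 10 NRCWE-043 arrays have Dbp below every other array. The third panel sets Tef against Hlf.

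Arrays were also split by the sign of Dbp. This does not match the sets in Dbp, since 5 of the 10 NRCWE-043 arrays had Dbp below all 24 others. The 4 NRCWE-043 arrays with Dbp above 0 had Hlf at 1.29 to 1.55 (median 1.38), where the 18 other arrays with Dbp above 0 had 1.53 to 2.41 (median 2.09). Among arrays with Dbp below 0, Hlf was 0.64 to 1.42 (median 0.87) on 6 NRCWE-043 arrays and 1.38 to 1.97 (median 1.84) on 6 others. Tef showed medians of 1.55 against 2.35 above 0 and 1.04 against 1.81 below 0. Nfil3 with Dbp above 0 had medians of -1.25 with NRCWE-043 and -1.5 without, with ranges of -1.39 to -0.87 and -2.10 to -0.80 that overlapped. With Dbp below 0 the Nfil3 medians were -0.25 and -0.81, with ranges of -0.52 to -0.07 and -1.27 to -0.47. These are descriptions of arrays split by Dbp, and no test was made of them.

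For each member the 3 genes of most similar pattern over the 34 arrays, and the most opposed, were taken from 17095 named genes. For Dbp the similar genes were Nr1d2 (r = 0.959), Nr1d1 (0.895) and Tex11 (0.876), and the most opposed was Dtx4 (-0.924). For Hlf they were Tspan4 (0.909), Sord, the sorbitol dehydrogenase (0.857), and Per3 (0.847), and Arntl was the most opposed (-0.889). For Tef they were Nr1d2 (0.866), the adenylate kinase Ak4 (0.851) and Sord (0.847), with Glipr2 most opposed (-0.912). For Nfil3 they were Arntl (0.935), Dtx4 (0.877) and Ahcyl2 (0.873), with Nr1d2 most opposed (-0.935). Bhlhe40 had looser neighbours in Avpi1 (0.714), Tuba1c (0.699) and Metrnl (0.681), with Slc44a1 at -0.714. Bhlhe41 had Mlec (0.769), Metap1d (0.741) and Ppm1a (0.718), with Klhl42 at -0.754. The r values describe these arrays and carry no test.

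Of the core clock list, 19 of 20 genes were tested, Cry1 being above background on 0 arrays. Against all other groups 3 passed as lower with NRCWE-043 and 1 as higher, while 0.679% and 0.153% of all units did. The list median was -0.04, against -0.01 over all units. Nr1d2, the gene of REV-ERBβ, fell by 1.25 ± 0.25 (adjusted p = 0.0124, limma). Nr1d1, the gene of REV-ERBα, did not pass (-0.58 ± 0.47, adjusted p = 0.760, limma). The period genes Per3 and Per2, which close the loop, fell by 0.77 ± 0.15 (0.00873) and 0.71 ± 0.15 (0.0203). Arntl, which encodes the activator BMAL1, rose by 1.42 ± 0.28 (0.0123). With median centring in place of loess, 1 passed as lower and 1 as higher, as Per2 and Nr1d2 no longer passed (adjusted p = 0.0748 and 0.0532). Against the controls alone Nr1d2, Per3, Per2 and Arntl stood at -1.15 ± 0.36, -0.66 ± 0.21, -0.78 ± 0.22 and 1.28 ± 0.41. There 0 of 19 passed (limma), with 5 of 19 at an unadjusted p under 0.05, against 0% and 5.5% of all units.

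Of 15 rhythmic output targets, genes known to follow the clock in several tissues, 2 passed as lower and 0 as higher. Over all units 0.679% passed as lower and 0.153% as higher. In the list 11 lay below 0, as did 15763 of 29316 units, and the list median was -0.27. Tspan4, a tetraspanin, fell by 1.03 ± 0.13 (adjusted p = 0.000181, limma) and Wee1, the gene of a kinase that restrains mitosis, by 0.54 ± 0.12 (0.0205). The next by p were the cell cycle inhibitor Cdkn1a (0.61 ± 0.17, 0.0687) and the deubiquitinase Usp2 (-0.53 ± 0.15, 0.0866). Wee1 did not pass with median centring (adjusted p = 0.130). The clock and output lists were drawn up with these results known.

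**Figure D5:**
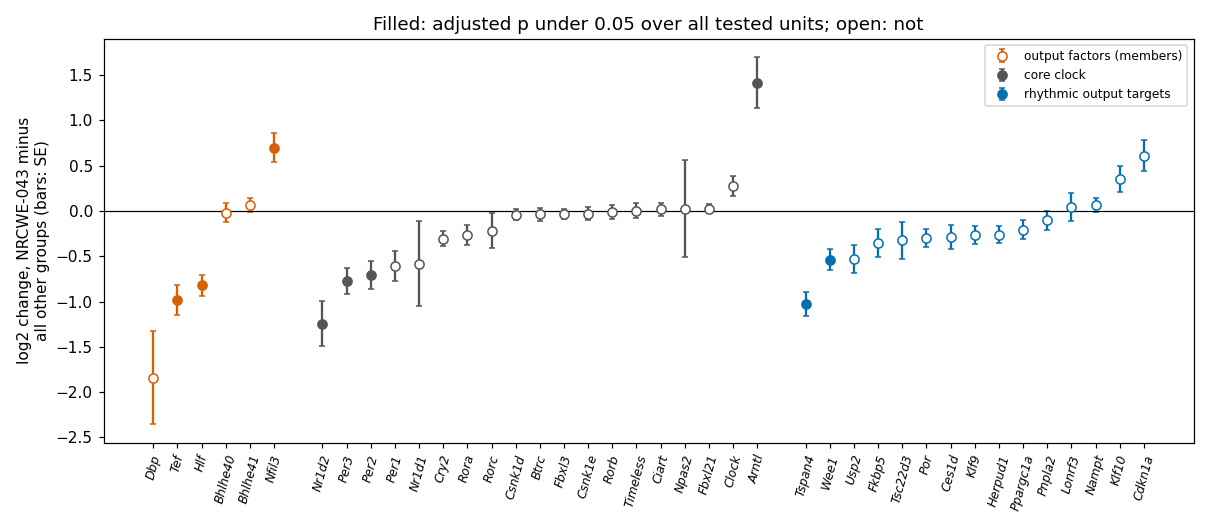
The y axis is the log2 change of NRCWE-043 against all other groups with its SE, for the 6 members, the 19 tested core clock genes and the 15 rhythmic output targets. Filled symbols passed the adjusted threshold, and Dbp (-1.84 ± 0.51) is open.

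No relative of the members passed. Of 14 relatives of the members (other bZIP and bHLH repressor genes), 0 passed in limma with 3 at an unadjusted p under 0.05, and the median was 0.04. The shares over all units were 0.832% and 10.4%. The smallest p values belonged to the Notch target Hey1 (-0.33 ± 0.09, adjusted p = 0.0773), Bhlha15 (0.26 ± 0.11, 0.385), Cebpb (0.22 ± 0.10, 0.470) and Cebpe (0.16 ± 0.10, 0.624).

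Other inputs known to act on these genes were counted in the same comparison, where 0.832% of all units passed and 10.4% had an unadjusted p under 0.05. Some of the glucocorticoid genes, Per1, Klf9 and Cdkn1a among them, also stand in the clock or output lists. Of 14 glucocorticoid response genes, 0 passed in limma with 6 at an unadjusted p under 0.05, 7 lying below 0 and 7 above. Those with the smallest p besides Cdkn1a were Per1 (-0.61 ± 0.17, adjusted p = 0.0726), Angptl4 (0.74 ± 0.26, 0.208) and Klf9 (-0.27 ± 0.10, 0.285). Of 14 hypoxia response genes 1 passed, the vasodilator peptide gene Adm (0.77 ± 0.18, adjusted p = 0.0372, limma), which did not pass with median centring (0.0606), quantile normalization (0.0651) or processed signals (0.0595). The next were Pdk1 (-0.15 ± 0.06, 0.260), Pfkfb3 (-0.25 ± 0.10, 0.305) and Hk2 (-0.21 ± 0.13, 0.651).

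Of 12 immediate early genes, 11 had a value above 0, 0 passed in limma and 3 had an unadjusted p under 0.05, with a median of 0.20. Beside this list and the next, 0.832% of all units passed and 10.4% had an unadjusted p under 0.05, and 13553 of 29316 units lay above 0. Atf3 (0.28 ± 0.09, adjusted p = 0.131), Ier3 (0.31 ± 0.13, 0.360), Junb (0.31 ± 0.14, 0.447) and Nr4a1 (0.44 ± 0.23, 0.513) had the smallest p. Of 10 heat shock genes tested, all 10 had a value above 0, 0 passed in limma and 5 had an unadjusted p under 0.05, with a median of 0.22. Hsph1 (0.48 ± 0.16, adjusted p = 0.172), Hsp90aa1 (0.32 ± 0.11, 0.225), Hspa1a (0.52 ± 0.20, 0.277) and Hspa8 (0.27 ± 0.11, 0.296) led it. Against the controls alone the heat shock median was 0.05, with 7 of 10 above 0, where 13628 of 29316 units were.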

How the data were processed

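The authors scanned 34 two-colour arrays with Agilent Feature Extraction 11.0.1.1, per the file headers. In the deposited scanner files stand the median intensity of each spot and of its local background, processed intensities, and flags. The authors' deposited series table gives log2 ratios of lung over reference RNA. How that table was normalized is not given in the sources used here. It correlated at 0.994 to 0.998 per array with the values used here, in the same direction, and its column medians were -0.04 to -0.00.

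From the intensities, background was corrected with normexp (offset 50) and ratios were normalized by loess within each array (limma 3.58.1, R 4.3.3). Control and irregular spots (0.398 to 0.631% of an array) had weight 0, and repeated spots were averaged. Of 55681 probes, 27235 were named through RefSeq. Units that rose above background in the lung channel on 3 or more arrays were kept, and 1 linear model of 7 group means gave 18 comparisons with Benjamini-Hochberg adjustment over 29316 units at 0.05. Some units (120) lacked a value on some array. The number of arrays limits the precision, and the labels do not say how the samples of a group relate beyond their numbering, so p-values measure the spread between these arrays. The method was tested on simulated data.

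The 6 members, and the gene lists, were chosen with earlier results of these data known. Genes were named by a rule: the members in every comparison, list genes that passed or else the 4 with the smallest p, and for each member the 3 most similar and 1 most opposed genes. Arrays have no replicate number of their own in the labels and were numbered within groups for naming only. Alternatives covered slide as a block, background, normalization, filters, array weights, the other probe and single arrays left out.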

Additional observations from a re-analysis of the deposited data

Results flagged for a closer look

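The change with NRCWE-043 differed from that with the other materials for 3 members, by the test of the difference itself in limma. For Hlf the difference was -0.87 (adjusted p = 0.000271), for Tef -1.01 (adjusted p = 0.00439) and for Nfil3 0.68 (adjusted p = 0.0349). The Nfil3 call was lost with quantile normalization, median centring, tissue scores as covariates, 4 arrays of high fat or liver score left out, or any 1 of 11 single arrays left out (adjusted p up to 0.206). For each of these 3 members all 10 NRCWE-043 arrays lay on the same side of the median of the 24 other arrays. The share of all units for which that held was not worked out. In the 36 sets of 5 or 6 arrays (6 genes in 6 groups), 0 arrays lay far from the rest of their group. NRCWE-045 at 18 µg, with 3 arrays, was too small for that test. Its replicate 1 had Tef at 1.33 against 2.81 and 3.04 and Dbp at 0.20 against 2.64 and 2.15.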

How the results depend on the processing

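Hlf and Tef stayed lower and past the threshold against all other groups and against the other materials in every alternative fitted, with an adjusted p of at most 0.0483. Of 2133 values recomputed over 53 settings, 2030 counted as unchanged. A fitted change had to keep its direction and its side of the threshold. A count of units had to stay within 1.5 times. A difference within 1 slide had to lie within 1 SD (inside groups) of the main value. Bhlhe40 and Bhlhe41 could therefore turn sign within a slide and still count as unchanged. Against all other groups, slide as a fixed block gave 495 called units and 0.016 for Bhlhe40, and slide as a random block gave 655 units, -1.89 for Dbp, now past the threshold, and 0.004 for Bhlhe40. Processed signals gave 97 units, quantile normalization 154, the tissue scores as covariates 69 with Nfil3 at 0.63, no longer past the threshold, and median centring 26 with Nfil3 at 0.71, likewise lost, and Bhlhe40 at 0.015. The other probe gave -2.03 for Dbp and -0.17 for Bhlhe41 (-0.076 against the controls and -0.19 against the other materials). Within slide 4 Dbp stood at -4.68, Nfil3 at 1.43 and Bhlhe40 at -0.51, and within slide 6 Hlf at -1.25. Against the other materials the same settings gave 584 units (fixed block), 758 (random block), 168 (processed signals), 204 (quantile), 46 (tissue scores) and 43 (median centring). There Nfil3 no longer passed with quantile normalization (0.675), median centring (0.675), tissue scores (0.594) or the 4 arrays left out (0.688), and Dbp passed with the random block (-1.92) and the other probe (-2.12). Against the controls, array weights gave 3 units and leaving out 4 arrays with high fat or liver scores gave 2. Leaving out 1 array at a time gave -2.13 to -1.64 for Dbp, 0.63 to 0.80 for Nfil3 and -0.11 to 0.052 for Bhlhe40 (-0.16 to 0.002 against the other materials). It gave 95 (without NRCWE-043 54 µg replicate 3) to 471 called units (without replicate 4) against all others, with 15 of 34 arrays moving that count by over 1.5 times, 0 to 1 against the controls and 98 to 527 against the other materials. With slide as a fixed block the core clock list had 2 genes higher, the output list 1 higher, and the glucocorticoid and hypoxia lists 1 lower each. The causes were not tested. No paired analysis was possible because the sample numbers in the labels run once over all arrays and tie none across groups.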
